A study of Glycine max with 6 samples.

Results

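NAC proteins are a large plant-specific family of transcription factors, and the results below follow 46 probe sets for soybean NAC genes in leaves sprayed with a bacterial symbiosis signal. The members were chosen by name alone. They are the soybean probe sets for which every gene paired with them in the platform annotation carries a NAC symbol or synonym, and they are 46 of 37593 soybean probe sets and of 61170 probe sets on the array. They carry 23 gene names and 24 gene identifiers, since NAC5 is listed under a pair of identifiers. Of the 46 probe sets, 41 are paired with 1 gene and 5 with several. Plants were soybean (Glycine max) of the cultivar OAC Bayfield at the V1 stage, and the first trifoliolate leaf of each was sprayed with 2 mL of liquid and harvested 48 h later. In the treated group the liquid held 0.02% Tween 20 and 1e-07 M LCO, a lipo-chitooligosaccharide or Nod factor made by Bradyrhizobium japonicum strain 532C. The control group received water with the same share of Tween 20, so both groups carry the detergent and the spray. There were 3 arrays per group, and the labels do not say whether the arrays came from separate plants or from pools, and every p-value reflects only how these 6 arrays vary, which may be technical.

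All NAC proteins share a conserved N-terminal domain that binds DNA and lets the proteins pair, followed by a variable C-terminal part that activates or represses transcription. The family takes its name from NAM of petunia and ATAF and CUC of Arabidopsis, whose mutants or transcripts linked it to shoot meristems, organ boundaries and wounding. In leaves, members are known for roles in senescence, in cell death and in responses to drought, salt and abscisic acid, and in stems others direct the thickening of cell walls. LCO is the signal with which rhizobia start nodulation on legume roots, and the comparison asks what it does to leaf transcripts when it is sprayed on the leaf.

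Values are the authors' RMA summaries, taken as log2, with 1 value per probe set and array. A probe set was tested where its 6-array mean exceeded 3.31, which is percentile 90 of the means of those probe sets that target other organisms. The array medians of the 29286 tested soybean probe sets ran from 6.84 to 6.89. Leaf genes were bright in all arrays, with the brightest probe set of the chlorophyll-binding protein gene CAB3 between 14.37 and 14.40. Of 6 probe sets for nodule and root genes, 5 were under the limit for testing, and the sixth, for the early nodulin ENOD40B, had a log2 change of -0.26 (SE 0.29). Water 1 and water 2 lay closest together: over the tested NAC probe sets the SD of their difference was 0.274, against 0.423 to 1.25 in the other pairs. Water 3 stood apart from them in many NAC probe sets, where the median value over the tested members was 6.85 in water 1, 6.90 in water 2 and 5.74 in water 3. In the LCO arrays this median was 6.94, 6.34 and 5.67. Where leaving out water 3 turned the sign of a NAC probe set or moved its estimate far, the value without it is given.

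With LCO, 3 NAC probe sets were called higher than in water and 2 lower. The rises were in NAC21, in NAC19 and in a probe set shared by NAC022 and NAC2, and both falls were in NAC32. Only the NAC21 call held with each array left out in turn. Tested were 39 of the 46 members, and 5 of 39 passed an adjusted p of 0.05 (limma with Benjamini-Hochberg adjustment over all tested soybean probe sets), which is 12.8% beside 3.55% of all probe sets tested. By direction, 1.67% of all tested probe sets were called higher and 1.88% lower. The estimates of the 39 were split, with 20 higher and 19 lower, and their median log2 change was 0.08, beside -0.01 over all tested probe sets. That median was -0.27 without water 3, -0.21 without LCO 1, -0.01 without LCO 2, -0.16 with array weights and -0.04 with a stricter filter, so it had no stable sign. With array weights 14 NAC probe sets passed, beside 32.6% of all tested. The 3 water and 3 LCO arrays did not overlap in 15 of 39 members, or 38.5%, beside 31.5% of all probe sets tested. The 39 probe sets share genes and target sequences, so they are not independent of each other.

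**Figure D1:**
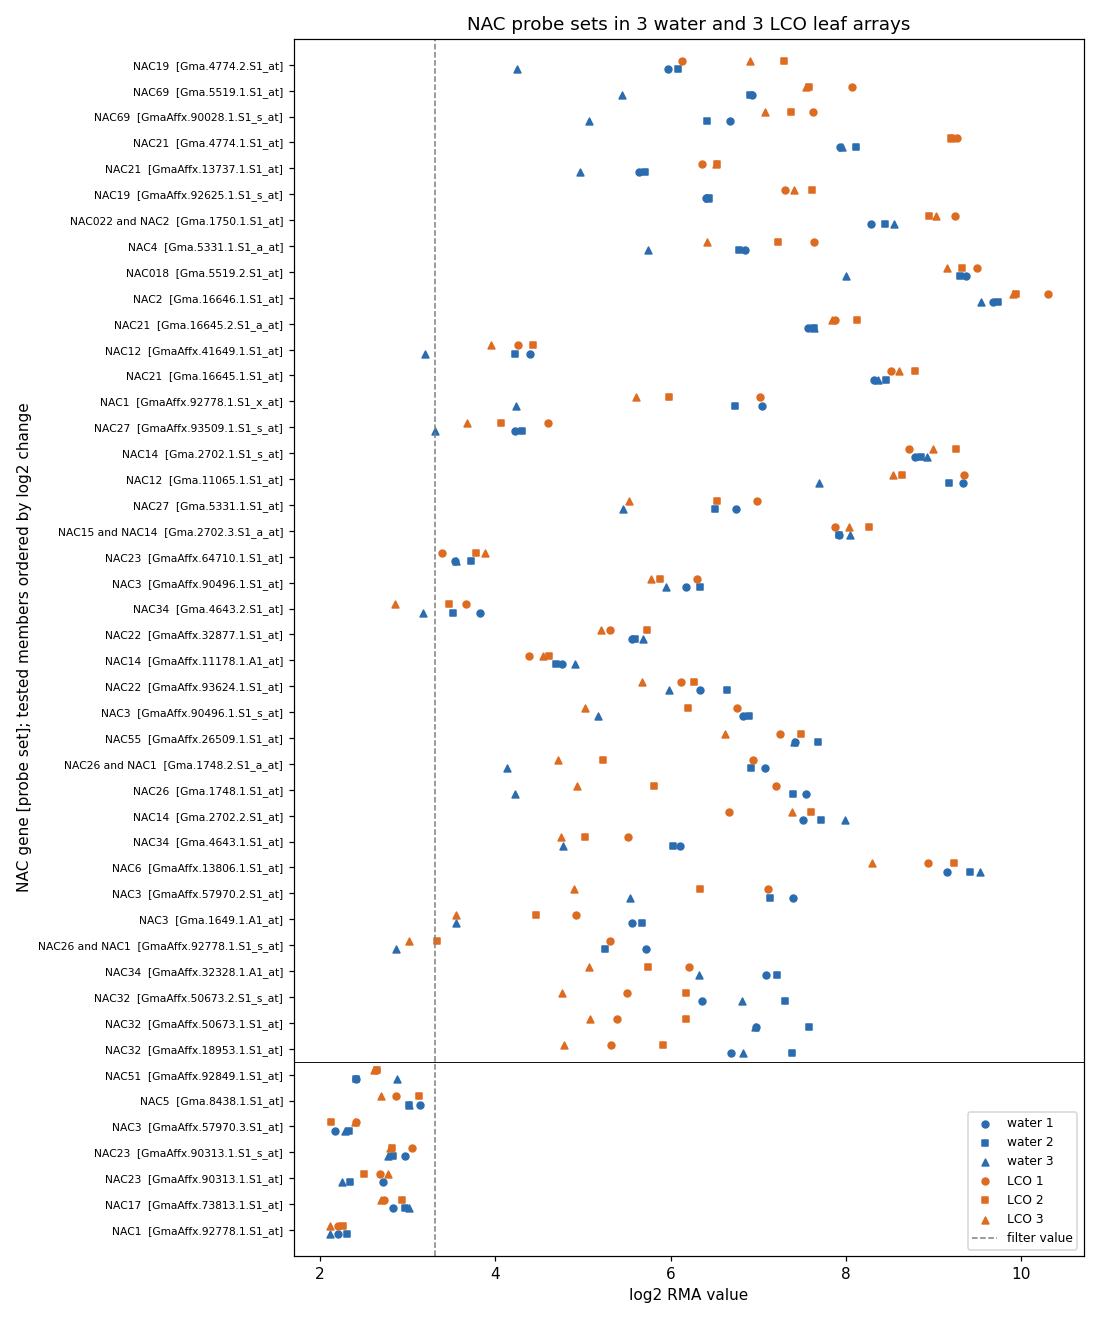
Values of all 46 NAC probe sets (rows) on a log2 axis, with water arrays in blue and LCO arrays in orange, and circles, squares and triangles for arrays 1, 2 and 3 of each group. The 7 rows under the horizontal line stayed under the filter value of 3.31 (dashed) in all arrays. NAC21 probe set Gma.4774.1.S1_at shows 3 tight points in each group, while NAC26 rows and most tested NAC3 rows have water 3 far left of water 1 and 2.

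NAC21, also listed as GmNAC109, is a NAC gene whose overexpression in Arabidopsis has been linked to lateral root formation and stress tolerance. Its probe set Gma.4774.1.S1_at read 7.93, 8.11 and 7.96 in water and 9.27, 9.20 and 9.20 with LCO. Every LCO array lay more than 1 log2 unit above every water array. The log2 change was 1.22 (SE 0.10, 95% confidence interval 0.99 to 1.45, limma adjusted p = 0.00242), a 2.33-fold rise. The gene has 3 further probe sets, all higher with LCO and none past the threshold. GmaAffx.13737.1.S1_at read 5.64, 5.71 and 4.97 in water and 6.36, 6.53 and 6.52 with LCO, a log2 change of 1.03 (SE 0.21, limma adjusted p = 0.0518). It was the member nearest to the threshold from outside, and it passed without water 3, its lowest water array (log2 change 0.80, limma adjusted p = 0.0235). Gma.16645.2.S1_a_at had a log2 change of 0.34 (SE 0.11) and Gma.16645.1.S1_at of 0.26 (SE 0.11). The 4 probe sets of NAC21 thus had the same sign but changes from 0.26 to 1.22.

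NAC19, also listed under the synonyms NAC011 and NAC20, rose in its probe set GmaAffx.92625.1.S1_s_at. That probe set read 6.40, 6.44 and 6.43 in water and 7.30, 7.61 and 7.41 with LCO. The water arrays fell within 0.04 log2 units of each other and the groups were far apart, with a log2 change of 1.02 (SE 0.11, 95% confidence interval 0.75 to 1.28, limma adjusted p = 0.00892), a 2.02-fold rise. The suffix _s_at marks probes that match more than 1 transcript, so a close relative could add to this signal. The other NAC19 probe set, Gma.4774.2.S1_at, read 5.97, 6.08 and 4.25 in water and 6.13, 7.29 and 6.91 with LCO. Its groups also did not overlap, but water 1, water 2 and LCO 1 lay close together, and the estimate of 1.34 (SE 0.54) did not pass (limma adjusted p = 0.185). Without water 3 it was 0.75 (limma adjusted p = 0.201). Its identifier shares the stem Gma.4774 with the changed probe set of NAC21, so signal of either gene may be seen by both. Whether the rises of NAC21 and NAC19 are separate was not tested.

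The probe set Gma.1750.1.S1_at matches NAC022, with the synonyms NAC7 and NAC8, as well as NAC2, and its signal cannot be divided between these genes. It read 8.29, 8.45 and 8.55 in water and 9.24, 8.95 and 9.03 with LCO. The groups did not overlap, and the log2 change was 0.65 (SE 0.12, 95% confidence interval 0.35 to 0.94, limma adjusted p = 0.0447), a 1.56-fold rise. NAC2, a gene whose overexpression in tobacco has been linked to lower stress tolerance, has 1 probe set of its own, Gma.16646.1.S1_at. It read 9.68, 9.73 and 9.54 in water and 10.30, 9.94 and 9.90 with LCO. The groups did not overlap there either, with a log2 change of 0.40 (SE 0.14) that did not pass (limma adjusted p = 0.141).

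NAC32 (LOC100170751) fell. Its probe set GmaAffx.50673.1.S1_at read 6.97, 7.58 and 6.96 in water and 5.39, 6.18 and 5.08 with LCO. GmaAffx.18953.1.S1_at read 6.69, 7.39 and 6.83 in water and 5.32, 5.91 and 4.78 with LCO. In both probe sets the groups did not overlap, water 2 was the highest water array and LCO 2 the highest LCO array. The log2 changes were -1.62 (SE 0.31, limma adjusted p = 0.0468) and -1.64 (SE 0.32, limma adjusted p = 0.0472), or 3.07-fold and 3.11-fold lower. The third probe set, GmaAffx.50673.2.S1_s_at, read 6.36, 7.30 and 6.81 in water and 5.50, 6.18 and 4.76 with LCO. Water 2 and LCO 2 were again the highest and the groups did not overlap, and the estimate of -1.34 (SE 0.39) did not pass (limma adjusted p = 0.107). Both called probe sets of NAC32 were the members nearest to the threshold from inside. The 3 probe sets target 1 gene and are not separate evidence.

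**Figure D2:**
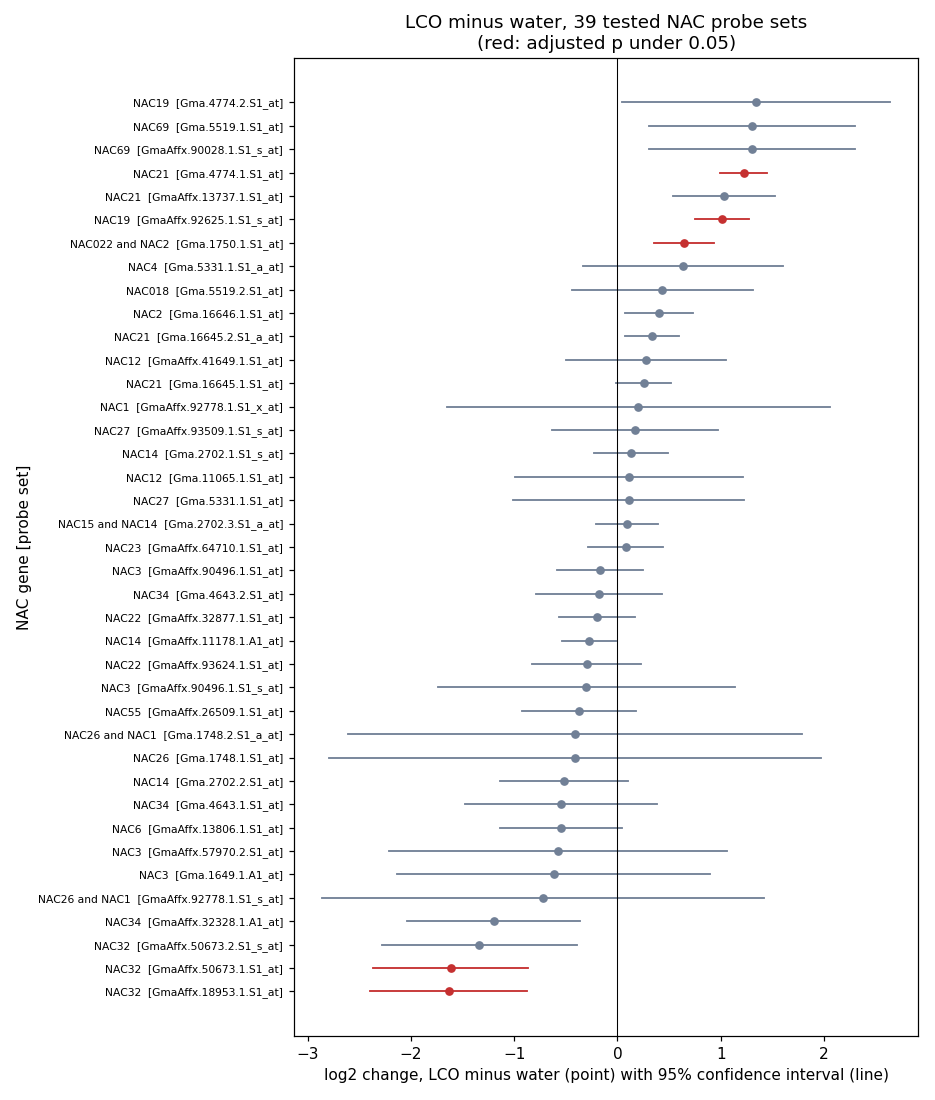
Log2 change, LCO minus water, of each tested NAC probe set (points) with its 95% confidence interval from limma (lines), where red marks an adjusted p under 0.05. The red points are those of NAC21 at 1.22, NAC19 at 1.02, NAC022 and NAC2 at 0.65 and NAC32 at -1.62 and -1.64, and the longest intervals belong to NAC1 and NAC26.

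NAC21 was the member whose call did not depend on any single array. With each array left out in turn, the adjusted p of its changed probe set ran from 0.00881 to 0.0232, and its log2 change ran from 1.19 to 1.28. NAC19 stayed past the threshold in 4 of 6 such fits, with an adjusted p of 0.0581 without water 1 and 0.0576 without water 2. For the shared probe set of NAC022 and NAC2 the call held in 1 of 6 fits, without water 3 (limma adjusted p = 0.0392). For NAC32 it held in 2 of 6 fits in GmaAffx.50673.1.S1_at and in 1 of 6 in GmaAffx.18953.1.S1_at, with adjusted p-values up to 0.170. The number of NAC probe sets past the threshold was 1 without water 1 and 1 without water 2, where 0.68% and 0.659% of all probe sets passed, and 5 without water 3, where 7.54% did. It was 2 without LCO 1 (1.95% of all), 4 without LCO 2 (1.42%) and 2 without LCO 3 (0.994%). When water 1 and 2 were averaged into 1 sample, NAC21 alone passed, with 0.693% of all probe sets.

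**Figure D3:**
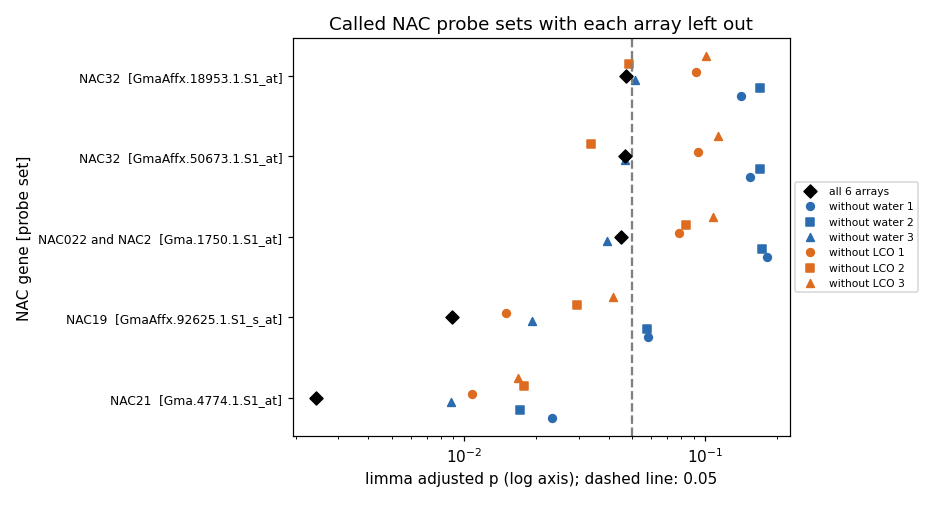
Adjusted p from limma (log axis) of the 5 called NAC probe sets with all 6 arrays (black diamonds) and without each water array (blue) or LCO array (orange), with the 0.05 threshold dashed. The points of NAC21 stay left of the line, from 0.00881 to 0.0232, while those of NAC32 and of NAC022 and NAC2 spread across it.

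The RNA quality controls, which were not tested, and the tissue markers were set beside these changes. For the soybean P450 control on the array, the 3′ probe set exceeded the 5′ probe set by 0.98 ± 0.03 in water and 2.27 ± 0.60 with LCO (log2, mean ± SD, n = 3). The same excess was 0.39 ± 0.35 and 0.60 ± 0.27 for the glutathione transferase control and 1.48 ± 0.13 and 1.31 ± 0.05 for an actin control. Of 24 probe sets for vascular genes, 16 were tested; 11 had higher and 5 lower estimates with LCO, and none passed by limma, though 7 of 16 had an unadjusted p under 0.05, beside 25.8% of all probe sets tested. The lower estimates were for SUT1 (-0.33 and -0.05), SWEET17 (-0.54 and -0.17) and SEOC (-0.07). Another SUT1 probe set was higher, at 0.15. Without water 3, where 7.54% of all tested probe sets passed, SWEET34 (log2 change 1.18, limma adjusted p = 0.0304) and SEOM (limma adjusted p = 0.0471) passed. The water arrays of SEOM left in that fit read 2.95 and 2.98, under 3.31, so its call is a description and no size is given. The summed linear signal of the vascular list was 933 to 1000 in water and 1020 to 1340 with LCO. The leaf mesophyll list had 15 of 19 probe sets tested, with none called by limma, 2 at an unadjusted p under 0.05 and a median log2 change of 0.02, and its summed signal was 97700 to 101000 in water and 99500 to 103000 with LCO. The part of RNA quality or of vascular tissue in the NAC changes was not tested. In whole leaves, fewer cells of a type and less RNA per cell cannot be told apart.

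NAC69 and NAC34 had estimates as large as some that were called, in opposite directions. NAC69 (LOC100814504) read 6.93, 6.90 and 5.44 in water and 8.07, 7.58 and 7.54 with LCO in Gma.5519.1.S1_at, a log2 change of 1.30 (SE 0.42, limma adjusted p = 0.123). Its other probe set, GmaAffx.90028.1.S1_s_at, read 6.68, 6.41 and 5.07 in water and 7.62, 7.37 and 7.08 with LCO, also a change of 1.30. Neither overlapped between groups, and in both water 3 lay further below water 1 and 2 than the groups lay apart. Without water 3 the changes were 0.81 in each (limma adjusted p = 0.0566 and 0.0600). NAC34 had lower estimates in 3 of 3 probe sets, of which GmaAffx.32328.1.A1_at read 7.09, 7.21 and 6.32 in water and 6.21, 5.74 and 5.07 with LCO. That log2 change was -1.20 (SE 0.35, limma adjusted p = 0.105). The groups did not overlap, but water 3 and LCO 1 were close. The other NAC34 probe sets had changes of -0.54 (SE 0.39) and -0.18 (SE 0.26), with overlapping groups. Without water 3 the 3 changes were -1.48, -0.98 and -0.34, and without LCO 3 the last was 0.06. NAC018, whose probe set Gma.5519.2.S1_at shares its stem with NAC69, read 9.37, 9.30 and 8.00 in water and 9.50, 9.32 and 9.15 with LCO. It had a change of 0.44 (SE 0.37), which was -0.01 without water 3.

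Soybean NAC1, NAC5 and NAC6 have been linked to cell death and senescence in tobacco leaves that express them. NAC6, in GmaAffx.13806.1.S1_at, read 9.15, 9.42 and 9.53 in water and 8.93, 9.23 and 8.30 with LCO. Its groups overlapped, and the log2 change of -0.55 (SE 0.25, 95% confidence interval -1.14 to 0.04) did not pass (limma adjusted p = 0.217). NAC5 was not tested, with all arrays between 2.70 and 3.14. NAC1 shares probe sets with its relative NAC26, and the values of these genes, chosen after they were seen, differed more within groups than between them. The NAC26 probe set Gma.1748.1.S1_at read 7.54, 7.40 and 4.22 in water and 7.20, 5.81 and 4.93 with LCO. Water 1, water 2 and LCO 1 formed the high end and water 3 and LCO 3 the low end. The log2 change was -0.41 with an SE of 1.00 and a 95% confidence interval from -2.80 to 1.97, which spans changes of several fold in both directions. NAC1 probe set GmaAffx.92778.1.S1_x_at read 7.04, 6.73 and 4.24 in water and 7.02, 5.98 and 5.60 with LCO, a change of 0.20 (SE 0.77). The other probe set listed for NAC1 alone, GmaAffx.92778.1.S1_at, read 2.11 to 2.31 in all arrays. Whether the signal of GmaAffx.92778.1.S1_x_at is that of NAC1 alone was not tested. The probe sets shared by NAC26 and NAC1 had changes of -0.41 (SE 0.92) and -0.72 (SE 0.89). Leaving out water 3 gave -1.50 for NAC26, -0.68 for GmaAffx.92778.1.S1_x_at, and -1.37 and -1.59 for the shared probe sets, and none of these passed.

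NAC6 is known to act on the gene of a vacuolar processing enzyme, a protease that carries out plant cell death. Probe sets named for such enzymes, VPE and VPE2, stood in the senescence and cell death list. Whether either is the gene that NAC6 acts on is not stated by the labels. The VPE probe set was not tested, with arrays from 2.81 to 3.32. VPE2 read 11.51, 11.74 and 10.01 in water and 10.89, 9.83 and 9.95 with LCO in Gma.1756.1.S1_at. Water 1 and 2 were high, LCO 1 next, and water 3 close to LCO 2 and 3. Its log2 change of -0.86 (SE 0.50) did not pass (limma adjusted p = 0.325), nor did that of -1.40 without water 3 (limma adjusted p = 0.0620). The list had 7 of 13 probe sets tested, for 5 genes, since VPE2 and SARK each have more than 1 probe set. All 7 of 7 estimates were lower and none passed by limma. At an unadjusted p under 0.05 there were 3 (beside 25.8% of all tested), and the median log2 change was -0.57. SARK, a receptor-like kinase gene named for senescence, had a change of -0.55 (SE 0.12, limma adjusted p = 0.0632) in one probe set and of -0.57 (SE 0.21) in another. Without water 3 these were smaller, at -0.45 and -0.34. PAO1 entered the list by its symbol, and with the synonym SPAO it may not be the chlorophyll-degrading enzyme that the symbol was meant to find. It had a change of -0.72 (SE 0.15, limma adjusted p = 0.0597), and of -0.82 without water 3. There it passed (limma adjusted p = 0.0395), as did 7.54% of all tested probe sets. The stay-green genes SGR1 and SGR2, which act in chlorophyll breakdown, had changes of -0.33 (SE 0.29) and -0.20 (SE 0.22), or -0.59 and -0.41 without water 3.

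NAC3, NAC4 and NAC27 are genes of the water and salt stress response in soybean: transcripts of NAC3 and NAC4 have been described as induced by osmotic stress, and NAC27, also called SIN1, as promoting root growth under salt. None of their tested probe sets passed. NAC3 had lower estimates in 4 of 4 tested probe sets, from -0.62 (SE 0.63) to -0.17 (SE 0.17). Without water 3 all 4 were further below 0, from -1.31 to -0.27, and without LCO 3 they ran from -0.24 to 0.19, with 2 of 4 above 0. In its probe set GmaAffx.57970.2.S1_at it read 7.40, 7.13 and 5.54 in water and 7.11, 6.34 and 4.90 with LCO. Its arrays ranged over 1.85 log2 units in water and 2.20 with LCO, and the groups overlapped. NAC4 read 6.85, 6.78 and 5.74 in water and 7.63, 7.22 and 6.41 with LCO, with a change of 0.63 (SE 0.40). NAC27 read 6.75, 6.51 and 5.46 in water and 6.99, 6.53 and 5.52 with LCO in Gma.5331.1.S1_at, with a change of 0.11 (SE 0.47), and its second probe set had one of 0.17 (SE 0.33). Without water 3 these were -0.28 and -0.15, and the change of NAC4 was 0.28. The probe sets of NAC4 and NAC27 share the stem Gma.5331, so signal of either gene may be seen by both. NAC12, listed with the synonym SNAC62, read 9.33, 9.17 and 7.69 in water and 9.35, 8.64 and 8.54 with LCO in Gma.11065.1.S1_at. Water 3 was the lowest array and LCO 1 was close to water 1, and the change was 0.11 (SE 0.46). The other NAC12 probe set had a change of 0.27 (SE 0.32). Without water 3 the sign turned in both, to -0.40 and -0.10, and neither passed.

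The low values of water 3 ran through much of the family. In 16 of 39 tested NAC probe sets, which match 10 genes, water 3 lay more than 1 log2 unit below the mean of water 1 and 2, and in none did it lie as far above. The cut of 1 was chosen after the values were seen, and no test was made. Of all 29286 tested probe sets, 2.05% had water 3 that far below. The share was 18.0% for WRKY, 4.76% for MYB and 2.11% for bZIP probe sets. Water 3 was the lowest water array in 64.1% of NAC, 85.4% of WRKY, 57.1% of MYB, 57.9% of bZIP and 40.1% of all tested probe sets. The 16 were NAC26, NAC1 and their 2 shared probe sets, 3 of 4 tested for NAC3, 2 of 2 for NAC12 and for NAC69, and 1 each of NAC19, NAC018, NAC34, NAC27 and NAC4. The deviation of water 3 ran from -3.25 log2 units in NAC26 to -1.07 in NAC4. Water 1 and water 2 differed by at most 0.47 in these 16. In 14 of 16 LCO 1 was the highest LCO array, and in 14 of 16 it lay within 1 log2 unit of the mean of water 1 and 2. Shares over all tested probe sets were not counted for these. Over all tested probe sets the SD of the difference between water 1 and LCO 1 was 0.576, so a distance under 1 was usual. In 15 of 16 LCO 3 was the lowest LCO array. It was so in 71.8% of NAC, 59.6% of WRKY, 32.1% of MYB, 42.1% of bZIP and 33.0% of all tested probe sets.

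The choice of these 16 by the place of water 3 fixes a wide water group, so their precision and calls only describe them. Their standard errors ran from 0.32 to 1.00, while the median standard error was 0.17 in the other 23 tested members and 0.14 over all tested probe sets. None of the 16 passed the threshold, with 3 at an unadjusted p under 0.05, and none passed without water 3. The number with a lower estimate was 7 of 16 with all arrays and 12 of 16 without water 3. The 5 called probe sets were all among the other 23. The range over the water arrays exceeded 1 log2 unit in the same 16 members and in 4.81% of all tested probe sets. That share was 23.6% for WRKY, 7.14% for MYB and 6.32% for bZIP. The LCO arrays, which the choice did not use, ranged over more than 1 in 14 of the 39 (35.9%), beside 6.35% of all. For LCO the share was 22.5% for WRKY, 15.5% for MYB and 8.42% for bZIP, so wide ranges were not particular to NAC. The changed probe sets of NAC21 and NAC19 had water ranges of 0.18 and 0.04.

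**Figure D4:**
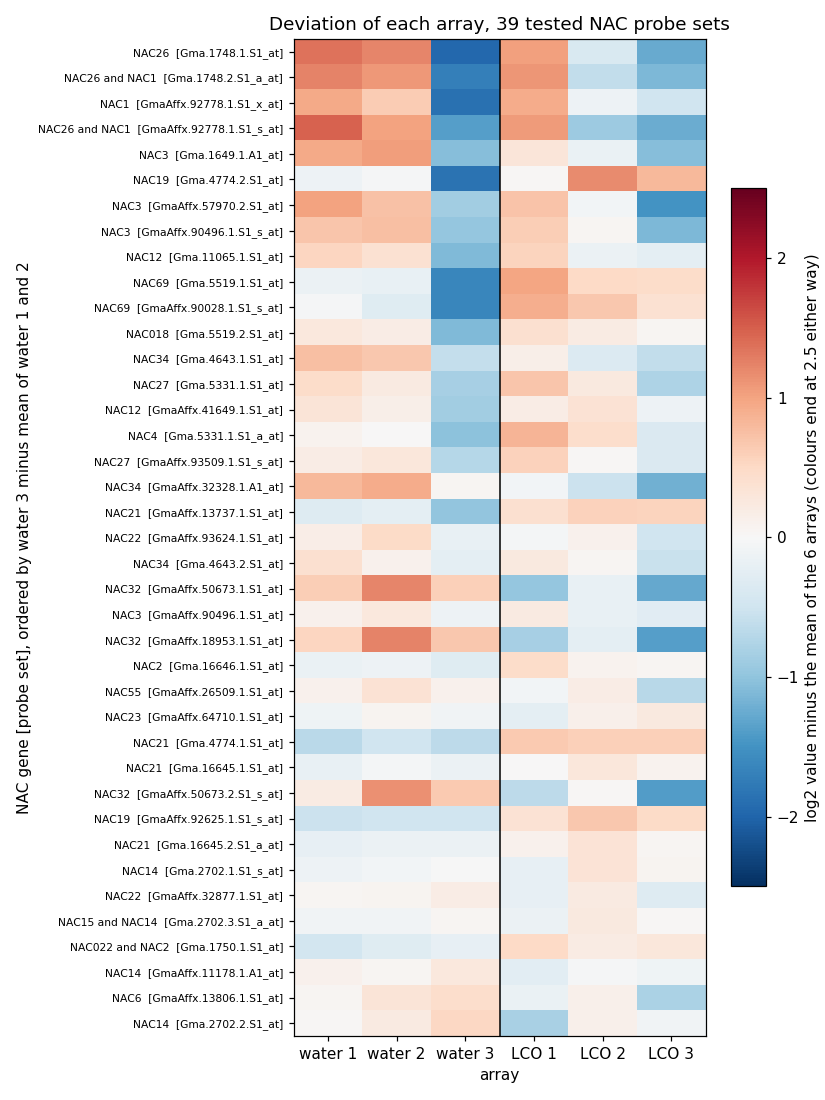
Deviation of each array (columns) from the mean of the 6 arrays for each tested NAC probe set (rows), in log2 units, red for above and blue for below the mean, ordered by water 3 minus the mean of water 1 and 2. Water 3 is blue throughout the upper rows, most often beside red water 1 and 2, with a difference of -3.25 log2 units in NAC26, while the changed probe set of NAC21, lower down, has 3 blue water and 3 red LCO arrays.

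None of the remaining members passed the threshold. NAC14, with 3 probe sets of its own and 1 shared with NAC15, had changes of -0.52 (SE 0.26), -0.28 (SE 0.11) and 0.13 (SE 0.15), and of 0.10 (SE 0.13) in the shared probe set. In Gma.2702.1.S1_s_at it read 8.79, 8.86 and 8.92 in water and 8.72, 9.26 and 8.99 with LCO, with the groups overlapping. NAC22 had changes of -0.30 (SE 0.22) and -0.20 (SE 0.15), NAC55 (LOC100816770) of -0.38 (SE 0.23) and NAC23 of 0.08 (SE 0.15) in the 1 of its 3 probe sets that was tested. The 7 untested probe sets, for NAC1, NAC3, NAC5, NAC17, NAC51 and, with 2, NAC23, read between 2.11 and 3.14 in all arrays. NAC17 and NAC51 had no other probe set, so nothing is known here of these genes above the limit for testing.

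WRKY, MYB and bZIP probe sets passed by limma in 1 of 89, 0 of 84 and 2 of 95 cases, beside 3.55% of all tested, and differences between families were not tested. With array weights 24, 30 and 32 passed, where 32.6% of all tested probe sets did. Without water 3, where 7.54% of all passed, the numbers were 5, 2 and 6, beside 5 of 39 NAC probe sets. The families had median log2 changes of -0.07, 0.01 and -0.03, or -0.20, 0.01 and -0.08 without water 3. The 3 that passed were lower with LCO: WRKY22 at -0.71 (SE 0.10, limma adjusted p = 0.0203), BZIP95 at -0.88 (SE 0.14, limma adjusted p = 0.0286) and BZIP94, at least 3.17-fold lower since its LCO arrays were all under 3.31. BZIP94 passed the filter only through its water arrays, so its call is a description. At an unadjusted p under 0.05 there were 17 WRKY, 22 MYB and 25 bZIP probe sets beside 14 NAC probe sets, and 25.8% of all tested. Genes of abscisic acid and water stress, a setting in which NAC factors are often studied, had 1 of 14 tested probe sets past the threshold, DREB1-like, which read 3.02, 2.93 and 2.91 in water and 7.59, 5.31 and 6.26 with LCO and was at least 8.44-fold higher. It passed the filter only through its LCO arrays, so that call too is a description. In the same list BZIP1 had changes of -0.47 (SE 0.27) and -0.40 (SE 0.17), and the stress gene ERD15 of 0.67 (SE 0.32) and 0.38 (SE 0.25). Without water 3 those of BZIP1 were -0.74 and -0.55 and those of ERD15 0.43 and 0.15. The median of that list was 0.07, or -0.06 without water 3. Genes of lignin precursors, a branch of cell wall thickening, had 0 of 12 past the threshold by limma and 3 at an unadjusted p under 0.05. Their median was 0.00, or -0.14 without water 3. In that list 4CL3, a coumarate ligase, had a change of -0.46 (SE 0.10, limma adjusted p = 0.0632) and CCR, a cinnamoyl-CoA reductase, of -0.89 (SE 0.28) in one probe set and -0.03 (SE 0.14) in the other. The former passed without water 3 (log2 change -1.14, limma adjusted p = 0.0477). The third with an unadjusted p under 0.05, in a probe set of the ligase gene 4CL4, was higher with LCO, at 0.49 (SE 0.15).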

How the data were processed

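Leaf RNA was measured on 6 Affymetrix soybean arrays, 1 colour, with biotin-labelled cRNA. RMA is the only step that the submitters' processing notes name for the deposited values, and the authors' RMA table was read as log2 from the range of its values, since no label states the scale. All per-sample columns were used. Groups came from the titles. Symbols were read from the platform annotation and, through the Entrez identifier, from RefSeq (Glycine_max_v4.0); 23 of 24 member identifiers matched. The array's genome build is not stated, and no positions are printed.

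Soybean probe sets whose mean passed the percentile 90 of the 23394 probe sets of Phytophthora sojae and Heterodera glycines, 3.31, were tested (29286) with limma 3.58.1 in R 4.3.3 (lmFit, eBayes, group as the only term), Benjamini-Hochberg adjustment and a threshold of 0.05. A group with all arrays under 3.31 was set to 3.31, which makes its fold a bound. Water 1 and 2 shared 65 values identical to all 6 decimals of the file, against 17 to 50 in other pairs, and were counted as separate arrays. Simulated data with 200 changed probe sets per run were used to test the fit. Members, lists, alternatives and the naming rule were chosen with earlier results of these data known. The rule named members past the threshold with their genes' other probe sets, and, of the rest, the 4 with the smallest p and the 4 brightest; other members are added as description, and genes of the comparison lists named without passing the threshold were chosen after their values were seen. The number of arrays limits the precision.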

Additional observations from a re-analysis of the deposited data

How the results depend on the processing

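The direction of the 5 called NAC probe sets held under every alternative run on them, and no NAC probe set that passed in any fit had the opposite sign in the main one. The count of 5 stayed at 5 with no filter, a stricter filter, renewed quantile normalization, or a trended robust prior, and was 4 with centred medians. It was 14 with array weights (32.6% of all probe sets) and 10 with the replicate block (10.3%). With 1 mean per gene it was 2 (NAC21, and NAC022 with NAC2). With the ordinary t statistic or with water 1 and 2 averaged it was 1, NAC21. Leaving out single arrays gave 1 to 5. The deviations of same-numbered arrays from their group means correlated at 0.452, -0.036 and 0.527 for numbers 1, 2 and 3. Water 1 and water 3 each correlated best with the LCO array of their own number. Water 2 correlated better with LCO 1 (0.448) than with LCO 2. Deviations within a group cancel out, so these correlations are tied to each other and are not separate matches. The titles give only the numbers, and whether same-numbered samples were handled together is not known. For all soybean probe sets the count of 1040 became 9544 with array weights, 3010 with the replicate block, 203 with water 1 and 2 averaged, 193 with the ordinary t statistic and 3030 at a threshold of 0.1, and 193 to 2207 with an array left out. With array weights, where 32.6% of all passed, the counts were 24 for WRKY, 30 for MYB and 32 for bZIP. In that fit they were 5 for abscisic acid and water stress, 4 for senescence and 4 for secondary wall. With the replicate block, where 10.3% passed, they were 9 for WRKY, 9 for MYB, 7 for bZIP, 1 for senescence and 1 for secondary wall. With water 1 and 2 averaged or the ordinary t statistic they were 0 for WRKY, 1 for bZIP and 0 for abscisic acid and water stress. With 1 mean per gene WRKY had 0, with the stricter filter bZIP had 1, and with centred medians senescence had 1. Leaving out single arrays, where 0.659% to 7.54% of all tested passed, gave 0 to 5 for WRKY, 0 to 2 for MYB and 1 to 6 for bZIP. It gave 0 to 1 for abscisic acid and water stress, and 0 to 1 for senescence and secondary wall. The highest of these counts came without water 3, except for abscisic acid and water stress, which had 0 without water 1, water 2 or LCO 3. The causes of these shifts were not tested.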
